A study of Homo sapiens with 24 samples.

Results

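The mitosis genes described here are 40 genes that act in G2 and mitosis: the kinases and cyclins that start division, the spindle checkpoint, centromere and kinetochore proteins, the chromosomal passenger complex, spindle motors, cytokinesis proteins, and TOP2A and FOXM1. They were taken by gene symbol from a list of named genes. All 40 were among the 34213 genes of the count table, and all 40 passed the low-count filter that left 16076 genes for testing. RNA was sequenced from HEL, a human erythroleukaemia cell line with an activating mutation of JAK2, used as a model of JAK2-driven myeloproliferative neoplasms. The cells received the solvent DMSO, or a JAK inhibitor (ruxolitinib, fedratinib, momelotinib, pacritinib or itacitinib) at 500 nM, for 4 h or 48 h. That gave 12 groups of 2 libraries, 24 libraries in all from this single line. The labels do not say whether the 2 libraries of a group came from separate cultures, so the p-values reflect no more than the spread between the libraries sequenced, which may be technical.

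Entry into mitosis depends on CDK1 bound to a B-type cyclin, with AURKA, PLK1 and the CDC25 phosphatases switching the complex on. The spindle checkpoint (BUB1, BUB1B, BUB3, MAD2L1 and TTK) holds CDC20 until every kinetochore is attached, after which the anaphase-promoting complex destroys cyclin B and securin (PTTG1) and frees separase (ESPL1). Most of these genes are transcribed in G2 and M, through MuvB complexes with B-MYB and FOXM1 that act at promoters with a cell cycle homology region and CCAAT boxes. In a bulk RNA library, fewer cells in G2 and M and less RNA per cell cannot be told apart, and this holds for every result below.

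Promoter sequences were shown for 6 members because they hold the letters TTTGAA of the cell cycle homology region on either strand. Whether the marked letters are the element that acts in each promoter was not tested. In each, capitals mark the cell cycle homology letters TTTGAA, read on either strand. In CDK1 and KIF11 they also mark the CCAAT box, read on either strand, which the stretches printed for ANLN, BUB1B, CENPA and PLK1 do not hold. The first is from the CDK1 promoter on chromosome 10 (chr10:60778160-60778330, plus strand), where TTTGAA began 161 bases before the RefSeq start and CCAAT 150 bases before it. For KIF11 (chr10:92593030-92593129) the 2 matches began 28 and 53 bases before the start. For ANLN (chr7:36389827-36389856), BUB1B (chr15:40161034-40161063), CENPA (chr2:26786026-26786055) and PLK1 (chr16:23678848-23678877) the match lay 20, 23, 18 and 29 bases before it, and 30 bases around it are printed because the wider window overlaps an exon of GENCODE 29. All are on the plus strand and come from RefSeq on GRCh38.p14.
CDK1: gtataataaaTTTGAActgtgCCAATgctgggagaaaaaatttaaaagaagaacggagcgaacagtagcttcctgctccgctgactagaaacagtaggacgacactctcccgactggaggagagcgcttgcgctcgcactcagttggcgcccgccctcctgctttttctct
KIF11: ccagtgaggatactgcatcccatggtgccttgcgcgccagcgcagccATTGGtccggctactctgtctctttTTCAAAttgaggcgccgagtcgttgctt
ANLN: gcgctgaaaTTCAAATTTGAAcggctgcag
BUB1B: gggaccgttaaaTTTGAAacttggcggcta
CENPA: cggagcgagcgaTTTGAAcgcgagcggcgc
PLK1: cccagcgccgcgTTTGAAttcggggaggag
The ANLN stretch holds the letters on both strands side by side. The RefSeq promoter table matched 33 of the 40 members. Within 250 bases upstream, TTTGAA on either strand was present in 18 of the 33 members (54.5%) and in 13.6% of 27305 promoters of the same length. CCAAT on either strand was present in 25 members (75.8%) and in 33% of all promoters, and at least 2 copies in 15 members (45.5%) and 10% of all. Within 40 bases of the start, a window chosen after the distances were seen, TTTGAA was present in 12 members (36.4%) and in 1.83% of all promoters. The variant TTCGAA was in 0 members and 1.2% of promoters. BUB1, NUSAP1 and KIF20A, the members with the highest fold changes with ruxolitinib at 48 h, held CCAAT but no TTTGAA within 250 bases. They were picked by their values, and 15 of the 33 members lacked TTTGAA there. In that comparison 4 of those 15 were called higher and 2 lower. Among the 18 members with TTTGAA, 1 was higher and 3 lower, against 12.5% higher and 13.2% lower of all genes. A link between letters and calls was not tested. A match is a description of letters and not of binding.

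The libraries held 32153866 to 56618281 counts, and the level of a gene is given as CPM, its count scaled to library size. The member with the fewest reads was CDC25C, at 4.26 to 8.29 CPM, and its lowest count in a library was 157. Erythroid and megakaryocytic markers that define HEL cells were present, with HBG2 at 1713 to 2941 CPM and ITGA2B at 709.5 to 905 CPM. Not all of these markers were abundant. GP9 was 47.3 to 111.6 CPM, and PF4 was low, with a median of 2.33 CPM and a highest value of 3.78 CPM. The summed level of marker genes of B cells, fibroblasts and other cells was 0.337 to 1.68 CPM. Among them MS4A1 was at 0 in 23 of 24 libraries, and DCN and KRT5 each at 0 in 20. COL1A1 was above 0 in all 24 libraries, with a highest value of 1.02 CPM. The share of counts from RN7SL RNAs, abundant structural RNAs without a poly(A) tail, was 2.42% and 2.52% with DMSO at 4 h against 2.80% to 3.98% with the inhibitors. It was 3.05% and 3.36% with DMSO at 48 h against 3.10% to 4.755% with the inhibitors, with the highest values for fedratinib and pacritinib, and its part in the results was not tested.

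For RPKM, the level was divided by the merged length of all GENCODE 29 exons of a gene, which can exceed the length of its transcripts. By the mean RPKM over all libraries, the most abundant members were CDC20 (172 RPKM) and TPX2 (117 RPKM). CDC20 activates the anaphase-promoting complex, and TPX2 activates AURKA on spindle microtubules. They were followed by TOP2A (57.0 RPKM), the topoisomerase that untangles sister chromatids, the microtubule depolymerase KIF2C (54.7 RPKM) and the spindle protein NUSAP1 (54.4 RPKM). The least abundant were CENPE (7.35 RPKM), NUF2 (6.21 RPKM), ECT2 (4.25 RPKM) and CDC25C (1.94 RPKM). Across the 24 libraries, the log2 CPM of DLGAP5, KIF2C and NDC80 followed the mean of the other members most closely, with Pearson's r of 0.853, 0.807 and 0.806. AURKB (r = 0.013), BIRC5 (0.093) and FOXM1 (0.163) followed it least. Over the 780 pairs of members, r ranged from -0.506 to 0.883 with a median of 0.393, and all these values describe libraries that share their groups and scaling.

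The mean log2 CPM over the members summarises where the 12 groups stood. At 4 h it was 6.43 and 6.45 with DMSO and 6.33 and 6.37 with momelotinib, while ruxolitinib gave 6.52 and 6.54. Fedratinib gave 6.458 and 6.495 at 4 h, pacritinib 6.40 and 6.42, and itacitinib 6.42 and 6.39. At 48 h it was 6.44 and 6.45 with DMSO and 6.45 and 6.43 with ruxolitinib, but 6.28 and 6.30 with pacritinib, 6.30 and 6.33 with momelotinib, 6.32 and 6.35 with fedratinib, and 6.35 and 6.38 with itacitinib. Thus 4 of the 5 inhibitors had both libraries below both DMSO libraries at 48 h. A member was called higher or lower when edgeR's quasi-likelihood test gave a Benjamini-Hochberg adjusted p under 0.05 over all 16076 genes. Log2 fold changes are given ± SE with 2 libraries a group.

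**Figure D1:**
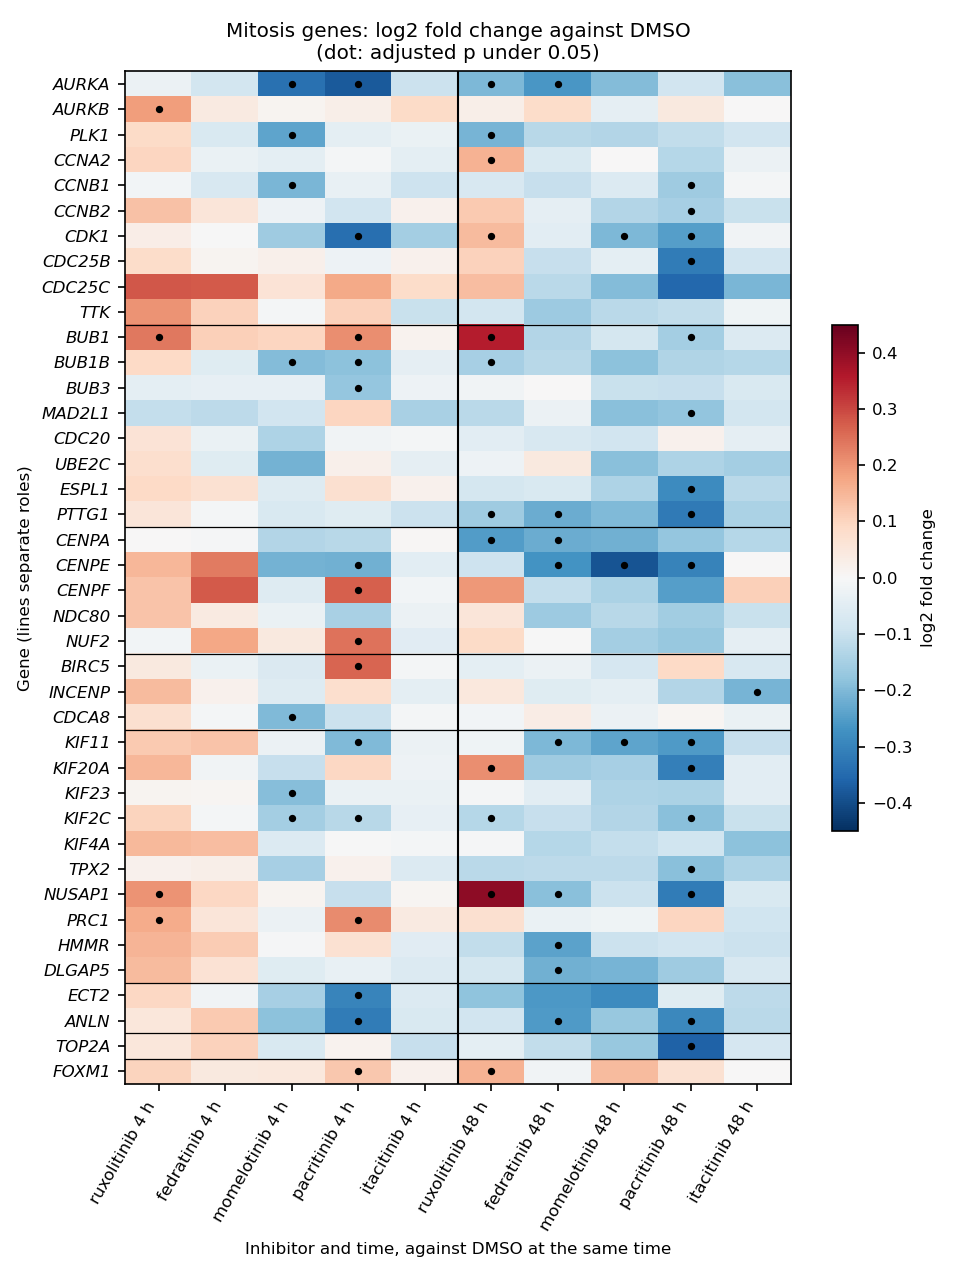
Log2 fold change against DMSO of the same time for each of the 40 mitosis genes (one line each, ordered by role) with the 5 inhibitors at 4 h and 48 h; marks show calls at an adjusted p under 0.05. The 48 h side is mostly negative for fedratinib, momelotinib, pacritinib and itacitinib, while ruxolitinib has NUSAP1 (0.40) and BUB1 (0.35) as its highest values.

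The 2 times were first compared in DMSO alone. Between DMSO at 48 h and DMSO at 4 h, edgeR called 0 of 40 members, against 8.16% of all genes tested, with 2 members at an unadjusted p under 0.05. DESeq2 called 1 member, lower, with no share of all genes given for that fit. The fold changes ran from -0.13 (CDCA8, borealin of the passenger complex, 95% interval -0.22 to -0.03) to 0.16 (HMMR, a spindle pole protein, 0.01 to 0.31), with a median of 0.00.

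At 4 h calls among the mitosis genes were upward with ruxolitinib and downward with momelotinib. With ruxolitinib, 4 of 40 members were called higher and 0 lower, against 3.42% higher and 5.04% lower among all genes. These were BUB1, NUSAP1, AURKB and the midzone protein PRC1. The fold change was positive for 35 members, with a median of 0.09 against 0.00 for all genes, and 28 members had both ruxolitinib libraries above both DMSO libraries. In either direction, 30 members did not overlap between these groups, against 49.9% of all genes. Without DMSO replicate 1 the count was 1, and it was 2, 2 and 2 without DMSO replicate 2, ruxolitinib replicate 1 and ruxolitinib replicate 2.

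With momelotinib at 4 h, 7 of 40 members were called lower and 0 higher, against 3.79% lower and 2.21% higher among all genes. They included the entry kinases AURKA and PLK1, cyclin B1, CDCA8, the checkpoint protein BUB1B and the motors KIF23 and KIF2C. The fold change was negative for 33 members, with a median of -0.06 against 0.01 for all genes, and 20 members did not overlap between the groups, against 43.5% of all genes. Leaving out DMSO replicate 2 left 2 calls. The count was 6, 6 and 7 without DMSO replicate 1, momelotinib replicate 1 and momelotinib replicate 2.

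Pacritinib at 4 h split the list. It had 9 members lower and 6 higher, against 17.4% lower and 13.1% higher among all genes, so the share of members called was near that of the whole transcriptome. AURKA, CDK1, ANLN and ECT2 headed the lower genes, and CENPF, BIRC5, NUF2, PRC1 and BUB1 the higher ones. The median was -0.02 against 0.01 for all genes, and 27 members did not overlap, against 64.4% of all genes. Without DMSO replicate 2 the count of 15 became 8, and without pacritinib replicate 2 it became 9.

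With fedratinib at 4 h edgeR called 0 of 40 members, against 1.59% of all genes, with 5 members at an unadjusted p under 0.05, and DESeq2 also called 0. CENPE had the lowest p, with a fold change of 0.23 ± 0.079 (95% interval 0.07 to 0.39, adjusted p = 0.145). Without a low-count filter 2 members were called higher, with no share of all genes given for that fit. With itacitinib at 4 h edgeR called 0 members, against 0.778% of all genes, with 3 at an unadjusted p under 0.05, and DESeq2 called 0. CDK1 had the lowest p there, at -0.15 ± 0.054 (95% interval -0.26 to -0.04, adjusted p = 0.233). Members without overlap numbered 20 for fedratinib and 11 for itacitinib, against 45.1% and 42.2% of all genes.

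At 48 h all calls were in the lower direction for every inhibitor except ruxolitinib, but momelotinib had only 3 calls and itacitinib 1. Pacritinib had the most, with 16 of 40 members lower and 0 higher, against 10.1% lower and 8.26% higher among all genes. They covered 4 of 10 kinases, cyclins and phosphatases, 4 of 8 checkpoint and anaphase genes, 5 of 10 spindle genes, TOP2A, ANLN and CENPE. The median was -0.16 against 0.00 for all genes, 34 members were negative, and 37 did not overlap with DMSO, against 57.6% of all genes. The count was 13, 14, 11 and 14 without DMSO replicate 1, DMSO replicate 2, pacritinib replicate 1 and pacritinib replicate 2.

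Fedratinib at 48 h had 9 members lower and 0 higher, against 4.04% lower and 3.66% higher among all genes. These were CENPE, AURKA, ANLN, HMMR, CENPA, PTTG1, DLGAP5, KIF11 and NUSAP1. The median was -0.11 against 0.00, 36 members were negative, and 28 did not overlap, against 50.4% of all genes. The count rested on single libraries: with DMSO replicate 1 or 2 left out it was 3 or 1, and with fedratinib replicate 1 or 2 left out 0 or 8.

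With momelotinib at 48 h, 3 members were lower (CENPE, KIF11 and CDK1) and 0 higher, against 0.946% lower and 0.995% higher among all genes. Yet 38 of 40 fold changes were negative, with a median of -0.13 against 0.00, and 34 members did not overlap, against 48.6% of all genes. The 3 calls fell to 0 without DMSO replicate 1, DMSO replicate 2 or momelotinib replicate 1, and to 1 without momelotinib replicate 2. DESeq2 called 9 members in this comparison, 8 of them lower. The share of all genes that DESeq2 called is not given here, so this count has no background to be set against.

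Itacitinib at 48 h had 1 member lower and 0 higher, against 0.355% lower and 0.0871% higher among all genes. It was INCENP, the scaffold of the passenger complex. The median was -0.08 against 0.00, 36 members were negative, and 29 did not overlap, against 44.1% of all genes. The call was lost without any 1 of the 4 libraries compared, with adjusted p from 0.0653 (without DMSO replicate 2) to 0.524 (without DMSO replicate 1).

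Ruxolitinib at 48 h had 6 members higher and 6 lower, against 12.5% higher and 13.2% lower among all genes, shares close to the background. NUSAP1, BUB1, KIF20A, CCNA2, FOXM1 and CDK1 were higher, and CENPA, PLK1, AURKA, PTTG1, BUB1B and KIF2C lower. The median was -0.02 against 0.01, and 29 members did not overlap, against 62% of all genes. With DMSO replicate 1 or 2 left out the count was 8 or 4, and with ruxolitinib replicate 1 or 2 left out 7 or 6. All inhibitors at a time were set against the same 2 DMSO libraries, so these counts are not independent of each other.

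**Figure D2:**
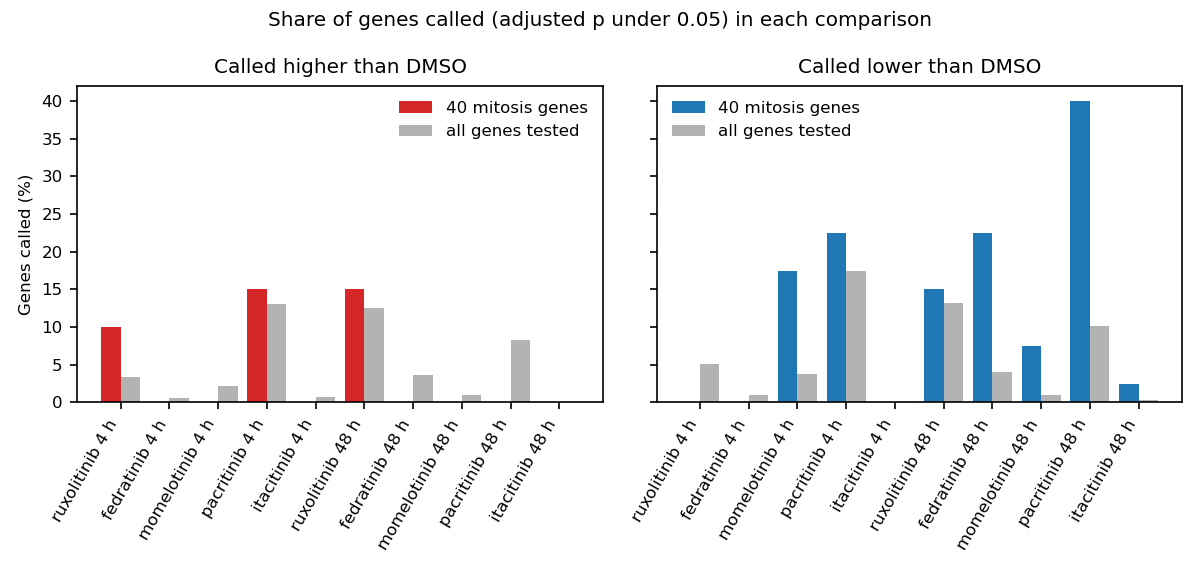
Share of the 40 mitosis genes (coloured bars) and of all genes tested (grey bars) called higher (left) or lower (right) than DMSO in each comparison, in percent. With pacritinib at 48 h, 40% of the mitosis genes were lower against 10.1% of all genes, whereas with ruxolitinib at 48 h the shares were 15% and 13.2%.

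AURKA, the kinase of centrosomes and spindle poles, was called lower with 4 of the 5 inhibitors at one time or the other. At 4 h its level was 53.3 and 56.4 CPM with DMSO, 42.3 and 44.7 with momelotinib and 42.5 and 42.02 with pacritinib. Both pairs lay below both DMSO libraries, and the fold changes were -0.34 ± 0.062 (adjusted p = 0.000559) for momelotinib and -0.38 ± 0.063 (adjusted p = 2.03e-05) for pacritinib, by edgeR's quasi-likelihood test. Ruxolitinib at 4 h left it at 53.3 and 54.5 CPM, which overlapped with DMSO, at a fold change of -0.03 ± 0.062 (95% interval -0.15 to 0.10). At 48 h AURKA was 50.4 and 55.8 CPM with DMSO, and it stood at 44.6 and 47.8 with ruxolitinib and at 43.3 and 45.3 with fedratinib. Neither inhibitor pair overlapped with DMSO, at -0.20 ± 0.063 (adjusted p = 0.0163) and -0.26 ± 0.063 (adjusted p = 0.00835). The ruxolitinib call was lost without DMSO replicate 2 or ruxolitinib replicate 1 (adjusted p = 0.271 and 0.184), and the fedratinib call without DMSO replicate 2 or fedratinib replicate 1 (adjusted p = 0.208 and 0.13).

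PLK1, which matures centrosomes and drives cells into mitosis, was 204 and 210.3 CPM with DMSO at 4 h and 183 and 169 with momelotinib. The momelotinib libraries were the lowest of all 12 at 4 h, and the fold change was -0.24 ± 0.045 (adjusted p = 0.000698) by edgeR's quasi-likelihood test. With ruxolitinib PLK1 was 221 and 219 CPM at 4 h, above DMSO, and 173 and 172 at 48 h, below the 200.4 and 199 CPM of DMSO. The fold change was 0.09 ± 0.045 at 4 h, which missed the threshold (adjusted p = 0.288), and -0.21 ± 0.045 (adjusted p = 0.000569) at 48 h. All of these PLK1 calls held with each library left out.

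CDK1, the kinase that executes mitotic entry, was lower with pacritinib at both times. At 4 h it was 69.2 and 69.3 CPM with DMSO and 54.5 and 55.1 with pacritinib, a fold change of -0.34 ± 0.054 (adjusted p = 1.03e-05) (edgeR's quasi-likelihood test). At 48 h it was 64.4 and 68.6 CPM with DMSO, 54.6 and 57.3 with pacritinib, 57.1 and 58.5 with momelotinib and 71.2 and 75.5 with ruxolitinib. The pacritinib and momelotinib libraries lay below DMSO and the ruxolitinib libraries above it. The fold change was -0.25 ± 0.054 (adjusted p = 0.00134) for pacritinib, which held without each library in turn. For momelotinib it was -0.20 ± 0.054 (adjusted p = 0.0432) and for ruxolitinib 0.14 ± 0.053 (adjusted p = 0.0495), and both calls were lost when any 1 of their 4 libraries was left out. Cyclin B1 (CCNB1), its partner, was 122 and 123 CPM with DMSO and 105 and 108 with momelotinib at 4 h, at -0.21 ± 0.044 (adjusted p = 0.00269), and the call was lost without DMSO replicate 2 (adjusted p = 0.0514). With pacritinib at 48 h CCNB1 was 104 and 107 CPM against 119 and 116 with DMSO, at -0.16 ± 0.045 (adjusted p = 0.0114), lost without DMSO replicate 1 or pacritinib replicate 1 (adjusted p = 0.0946 and 0.0874).

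CDC25B, a phosphatase that activates CDK1, was lower only in the comparison with pacritinib at 48 h among the 10 comparisons with DMSO. It was 65.5 and 65.1 CPM with DMSO and 49.8 and 55.2 with pacritinib, with no overlap, at -0.31 ± 0.060 (adjusted p = 0.000331) (edgeR's quasi-likelihood test). Of the other kinases and cyclins, AURKB, the kinase of the passenger complex, was 64.2 and 67.4 CPM with DMSO and 78.5 and 71.8 with ruxolitinib at 4 h, at 0.19 ± 0.060 (adjusted p = 0.0441). That call was lost without DMSO replicate 1, DMSO replicate 2 or ruxolitinib replicate 1 (adjusted p = 0.324, 0.0892 and 0.464). At 48 h AURKB stayed between 65.1 and 74.98 CPM in all 12 libraries. Cyclin A2 (CCNA2), which acts with CDK2 and CDK1, was higher with ruxolitinib at 48 h (0.16, adjusted p = 0.0138), a call lost without any 1 of the 4 libraries. Cyclin B2 (CCNB2) was lower with pacritinib at 48 h (-0.15, adjusted p = 0.0328), a call lost without DMSO replicate 1, DMSO replicate 2 or pacritinib replicate 1 (adjusted p = 0.073, 0.151 and 0.208).

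BUB1, the checkpoint kinase that marks centromeric chromatin, rose with ruxolitinib at both times. At 4 h it was 259.9 and 252 CPM with DMSO, compared with 303 and 299.97 for ruxolitinib and 295 and 296 for pacritinib. Both inhibitors were above DMSO with no overlap, at 0.24 ± 0.045 (adjusted p = 0.000415) and 0.21 ± 0.045 (adjusted p = 0.000519) by edgeR's quasi-likelihood test. At 48 h it was 269 and 259 CPM with DMSO, compared with 338 and 336 for ruxolitinib and 245 and 229.5 for pacritinib. Ruxolitinib stood far above every other library at 0.35 ± 0.045 (adjusted p = 1.95e-07), and pacritinib lay below DMSO at -0.15 ± 0.045 (adjusted p = 0.0155). The 3 former calls held without each library, and the last was lost without DMSO replicate 1 or pacritinib replicate 2 (adjusted p = 0.131 and 0.178).

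Its paralogue BUB1B (BubR1), an inhibitor of CDC20, did not follow it. BUB1B was lower with momelotinib at 4 h (-0.20, adjusted p = 0.0177, lost without DMSO replicate 2 or momelotinib replicate 1 at an adjusted p of 0.256 and 0.0975). It was also lower with pacritinib at 4 h (-0.18, adjusted p = 0.00647, lost without DMSO replicate 2 or pacritinib replicate 1 at an adjusted p of 0.116 and 0.0796). With ruxolitinib at 48 h it was -0.15 (adjusted p = 0.0309, lost without DMSO replicate 1, DMSO replicate 2 or ruxolitinib replicate 2 at an adjusted p of 0.154, 0.0806 and 0.444). BUB3, their common partner, was lower with pacritinib at 4 h (-0.17, adjusted p = 0.0046, lost without pacritinib replicate 2 at an adjusted p of 0.0516). MAD2L1, which captures CDC20, was lower with pacritinib at 48 h (-0.18, adjusted p = 0.0384, lost without DMSO replicate 1, pacritinib replicate 1 or pacritinib replicate 2 at an adjusted p of 0.3, 0.181 and 0.0745).

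Securin (PTTG1), the inhibitor of separase, was lower at 48 h with 3 inhibitors. It was 50.99 and 49.3 CPM with DMSO, 39.7 and 40.8 with pacritinib, 42.7 and 43.2 with fedratinib and 46.2 and 43.6 with ruxolitinib. All 6 inhibitor libraries lay below both DMSO libraries, at -0.32 ± 0.057 (adjusted p = 0.000135) for pacritinib, the one call that held without each library (edgeR's quasi-likelihood test). For fedratinib it was -0.22 ± 0.056 (adjusted p = 0.012), lost without DMSO replicate 1 or fedratinib replicate 1 (adjusted p = 0.112 and 0.115). For ruxolitinib it was -0.16 ± 0.057 (adjusted p = 0.0364), lost without DMSO replicate 1, DMSO replicate 2 or ruxolitinib replicate 2 (adjusted p = 0.207, 0.0642 and 0.279). PTTG1 shares near-identical sequence with an intronless copy, so its counts are uncertain. Separase (ESPL1) itself was lower with pacritinib at 48 h (-0.28 ± 0.066, adjusted p = 0.00235), which was lost on leaving out pacritinib replicate 1 (adjusted p = 0.135).

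The most abundant checkpoint target, CDC20, was called in none of the 10 comparisons with DMSO, nor was UBE2C, the ubiquitin-conjugating enzyme of the anaphase-promoting complex. CDC20 was 356 and 354 CPM with DMSO and 361 and 358 with pacritinib at 48 h. The pacritinib libraries lay just above those of DMSO without overlap, and the log2 fold change had a 95% interval of -0.08 to 0.12. With momelotinib at 4 h CDC20 was 338 and 313 CPM, below the 359 and 358 of DMSO, with an interval of -0.24 to -0.04 and an adjusted p of 0.0763. UBE2C was 33.4 and 34.95 CPM with DMSO and 30.96 and 28.1 with momelotinib at 4 h, with an interval of -0.35 to -0.08 and an adjusted p of 0.0557. The other members called in none of the 10 were TTK, NDC80, KIF4A and CDC25C. TTK with ruxolitinib at 4 h had an interval of 0.06 to 0.34 and NDC80 with pacritinib at 48 h one of -0.29 to -0.03. For CDC25C, the least abundant member, the interval with pacritinib at 48 h was -0.70 to -0.01, wider than for the others. KIF4A shares near-identical sequence with an intronless copy, so its counts are uncertain.

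Among centromere and kinetochore genes, CENPE, the kinesin that carries chromosomes to the spindle equator, was lower in 4 comparisons with DMSO. At 48 h it was 77.6 and 77.3 CPM with DMSO, 61.2 and 64.3 with pacritinib, 54.96 and 63.3 with momelotinib and 61.6 and 66.8 with fedratinib. The momelotinib libraries differed from each other by more than those of pacritinib, and all 6 were below DMSO. The fold changes were -0.39 ± 0.080 (adjusted p = 0.00814) for momelotinib, -0.30 ± 0.080 (adjusted p = 0.00735) for pacritinib and -0.27 ± 0.080 (adjusted p = 0.0323) for fedratinib, by edgeR's quasi-likelihood test. The momelotinib call was lost without DMSO replicate 1, DMSO replicate 2 or momelotinib replicate 1 (adjusted p = 0.0681, 0.0905 and 0.24). The pacritinib call was lost without pacritinib replicate 1 (adjusted p = 0.0788), and the fedratinib call without DMSO replicate 1, DMSO replicate 2 or fedratinib replicate 1 (adjusted p = 0.128, 0.139 and 0.295). With pacritinib at 4 h CENPE was -0.22 (adjusted p = 0.0393), lost without any 1 of the 4 libraries.

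CENPA, the histone that marks centromeres, was 38.5 and 39.2 CPM with DMSO at 48 h and 32.5 and 32.7 with ruxolitinib. The groups did not overlap, and the fold change of -0.25 ± 0.065 (adjusted p = 0.00328) held without each library. With fedratinib CENPA was 33.5 and 33.1 CPM at 48 h, at -0.22 ± 0.064 (adjusted p = 0.0266), a call lost without any 1 of the 4 libraries. CENPF and NUF2, which link kinetochores to microtubules, went the other way with pacritinib at 4 h. CENPF was 251 and 217 CPM with DMSO and 267 and 296 with pacritinib, at 0.27 ± 0.094 (adjusted p = 0.0293), lost without DMSO replicate 2 or pacritinib replicate 2 (adjusted p = 0.326 and 0.25). NUF2 was 20.6 and 20.5 CPM with DMSO, against 22.2 and 26.5 for pacritinib, at 0.25 ± 0.087 (adjusted p = 0.0305), lost without DMSO replicate 1, DMSO replicate 2 or pacritinib replicate 2 (adjusted p = 0.108, 0.132 and 0.47).

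The chromosomal passenger complex moved member by member. BIRC5 (survivin), which brings it to centromeres, was 135 and 135 CPM with DMSO and 160.4 and 163 with pacritinib at 4 h. Pacritinib gave the highest BIRC5 values of all 24 libraries, at 0.26 ± 0.049 (adjusted p = 0.000107) (edgeR's quasi-likelihood test), and the call held without each library. At 48 h BIRC5 was 134 and 134 CPM with DMSO and 144 and 141 with pacritinib, still without overlap but not called (0.09 ± 0.049, adjusted p = 0.227). CDCA8 (borealin) was 135 and 135 CPM with DMSO and 122 and 113 with momelotinib at 4 h, at -0.20 ± 0.046 (adjusted p = 0.00539), lost without DMSO replicate 2 or momelotinib replicate 2 (adjusted p = 0.0594 and 0.126). INCENP was 183 and 169 CPM with DMSO and 154 and 152 with itacitinib at 48 h, the only mitosis gene called with that inhibitor.

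Of the spindle genes, NUSAP1, which bundles microtubules around chromosomes, was higher with ruxolitinib and lower with pacritinib and fedratinib at 48 h. At 48 h it was 153 and 159 CPM with DMSO, 206 and 207 with ruxolitinib, 135 and 139 with fedratinib and 122 and 129 with pacritinib. Ruxolitinib lay above DMSO and the other 2 inhibitors below it, at 0.40 ± 0.047 (adjusted p = 3.62e-08) for ruxolitinib and -0.32 ± 0.048 (adjusted p = 1.14e-05) for pacritinib, both held without each library. For fedratinib the fold change was -0.19 ± 0.047 (adjusted p = 0.012), lost without DMSO replicate 2 or fedratinib replicate 1 (adjusted p = 0.143 and 0.143). At 4 h NUSAP1 was 149.7 and 160.5 CPM with DMSO and 175 and 181 with ruxolitinib, at 0.20 ± 0.047 (adjusted p = 0.00453), lost without DMSO replicate 1 or ruxolitinib replicate 2 (adjusted p = 0.172 and 0.0736).

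KIF20A, a motor that moves the passenger complex to the midzone, followed the same order. It was 83.5 and 81.9 CPM with DMSO at 48 h, 94.4 and 96.7 with ruxolitinib and 70.5 and 63.3 with pacritinib. The 3 pairs did not overlap, at 0.21 ± 0.057 (adjusted p = 0.00563) for ruxolitinib and -0.31 ± 0.058 (adjusted p = 0.000239) for pacritinib. The pacritinib call held without each library, and the ruxolitinib call was lost without DMSO replicate 2 or ruxolitinib replicate 2 (adjusted p = 0.0666 and 0.0684). KIF11, the motor that separates spindle poles, was 103 and 109 CPM with DMSO, 88.5 and 89.2 with pacritinib and 87.9 and 91.9 with momelotinib at 48 h. The fold changes were -0.25 ± 0.064 (adjusted p = 0.00514) for pacritinib, lost without DMSO replicate 2 (adjusted p = 0.0669), and -0.24 ± 0.064 (adjusted p = 0.0475) for momelotinib, lost without any 1 of the 4 libraries. With pacritinib at 4 h KIF11 was -0.20 (adjusted p = 0.0182, lost without DMSO replicate 1 or pacritinib replicate 1 at an adjusted p of 0.117 and 0.149). With fedratinib at 48 h it was -0.20 (adjusted p = 0.045, lost without DMSO replicate 1, DMSO replicate 2 or fedratinib replicate 1 at an adjusted p of 0.0772, 0.302 and 0.398).

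PRC1, which crosslinks midzone microtubules, was higher with pacritinib at 4 h. It was 125 and 129 CPM with DMSO, 147 and 148 with pacritinib and 140.2 and 145 with ruxolitinib. Both inhibitors were above DMSO, at 0.21 ± 0.051 (adjusted p = 0.00157) for pacritinib, held without each library, and 0.17 ± 0.051 (adjusted p = 0.0341) for ruxolitinib, lost without any 1 of the 4. TPX2 was 439 and 444 CPM with DMSO and 389 and 386 with pacritinib at 48 h, at -0.19 ± 0.047 (adjusted p = 0.00487), which held without each library. KIF2C was lower with momelotinib at 4 h (-0.15), pacritinib at 4 h (-0.13), ruxolitinib at 48 h (-0.13) and pacritinib at 48 h (-0.19). Its adjusted p ranged from 0.00324 with pacritinib at 48 h, lost without DMSO replicate 2 (adjusted p = 0.0548), to 0.0381 with momelotinib at 4 h, lost without DMSO replicate 2, momelotinib replicate 1 or momelotinib replicate 2 (adjusted p = 0.433, 0.111 and 0.106). The other 2 KIF2C calls were lost without DMSO replicate 2 or pacritinib replicate 2 (adjusted p = 0.377 and 0.301) for pacritinib at 4 h and without DMSO replicate 2, ruxolitinib replicate 1 or ruxolitinib replicate 2 (adjusted p = 0.248, 0.073 and 0.204) for ruxolitinib at 48 h. HMMR and DLGAP5, which organise spindle microtubules, were called lower in the fedratinib comparison at 48 h, at -0.24 (adjusted p = 0.0378, lost without DMSO replicate 1, DMSO replicate 2 or fedratinib replicate 1 at an adjusted p of 0.209, 0.102 and 0.422) and -0.22 (0.0182, lost without DMSO replicate 2, fedratinib replicate 1 or fedratinib replicate 2 at an adjusted p of 0.262, 0.096 and 0.099). KIF23, a motor of the central spindle, was lower with momelotinib at 4 h (-0.19, adjusted p = 0.041), a call lost without any 1 of the 4 libraries.

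Both cytokinesis genes were lower with pacritinib at 4 h. Anillin (ANLN), the scaffold of the contractile ring, was at 47.3 and 44.8 CPM with DMSO and fell to 36.2 and 37.7 with pacritinib at 4 h. At 48 h it was 49.2 and 49.5 CPM with DMSO, against 41.3 and 39.5 for pacritinib. The groups did not overlap at either time, at -0.32 ± 0.070 (adjusted p = 0.000671) and -0.29 ± 0.070 (adjusted p = 0.00336) by edgeR's quasi-likelihood test, and both calls held without each library. ANLN was also lower with fedratinib at 48 h (-0.25, adjusted p = 0.0192), a call lost without any 1 of the 4 libraries. ECT2, which activates RhoA at the division plane, was 23.5 and 26.04 CPM with DMSO and 19.9 and 20.4 with pacritinib at 4 h, at -0.30 ± 0.083 (adjusted p = 0.00585), lost without DMSO replicate 2 (adjusted p = 0.141). At 48 h the ECT2 fold change with pacritinib was -0.05 (95% interval -0.22 to 0.11).

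TOP2A was 396 and 389 CPM with DMSO and 303 and 308 with pacritinib at 48 h, the lowest values of all 24 libraries. Its fold change of -0.36 ± 0.068 (adjusted p = 0.000236) was the largest called for a mitosis gene with pacritinib at 48 h, and it held without each library. At 4 h TOP2A was 373 and 372 CPM with DMSO and 367 and 388 with pacritinib, which overlapped (95% interval -0.12 to 0.16). FOXM1, the transcription factor of the G2 programme, rose slightly in 2 comparisons. It was 139.7 and 133 CPM with DMSO and 155 and 149 with ruxolitinib at 48 h, at 0.16 ± 0.046 (adjusted p = 0.0111), lost without DMSO replicate 2 or ruxolitinib replicate 1 (adjusted p = 0.175 and 0.14). With pacritinib at 4 h it was 146 and 157 CPM against 142 and 138, at 0.12 ± 0.046 (adjusted p = 0.0449), lost without DMSO replicate 1, DMSO replicate 2 or pacritinib replicate 2 (adjusted p = 0.098, 0.249 and 0.375). FOXM1 was lower in none of the 10 comparisons, and with pacritinib at 48 h its interval was -0.02 to 0.16.

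**Figure D3:**
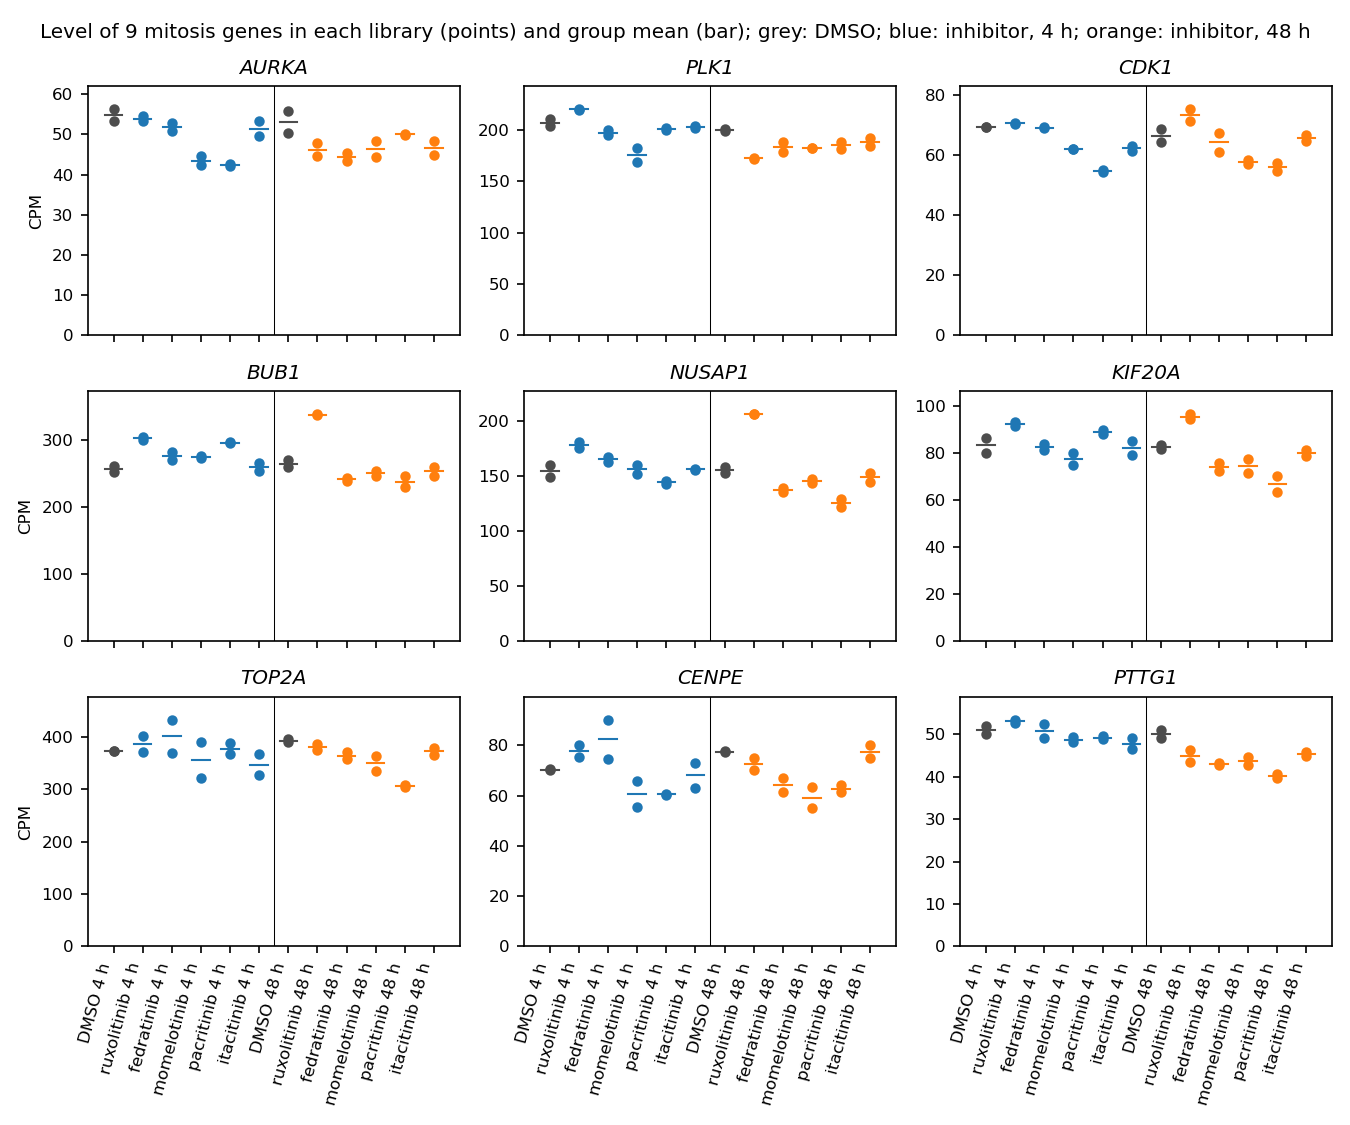
Level of 9 mitosis genes in each of the 24 libraries, in CPM from 0 (points) with the mean of each group (bars); the vertical line separates 4 h from 48 h. BUB1, NUSAP1 and KIF20A peak with ruxolitinib at 48 h, AURKA is lowest with momelotinib and pacritinib at 4 h, and TOP2A is lowest with pacritinib at 48 h.

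The change in an inhibitor's effect between 4 h and 48 h was tested directly, as the fold change at 48 h minus that at 4 h. Pacritinib had the most calls, with 12 members whose fold change was lower at 48 h and 1 higher, against 7.58% lower and 10.3% higher among all genes. BUB1 went from 0.21 to -0.15, a difference of -0.36 ± 0.063 (adjusted p = 0.000115) by edgeR's quasi-likelihood test. KIF20A went from 0.09 to -0.31 (-0.40 ± 0.081, adjusted p = 0.00056), and TOP2A from 0.02 to -0.36 (-0.38 ± 0.096, adjusted p = 0.00497). These 3 held with each of the 8 libraries left out. CENPF had the largest called difference, -0.51 ± 0.13 (adjusted p = 0.00635), lost without DMSO 4 h replicate 2 or pacritinib 4 h replicate 2 (adjusted p = 0.0511 and 0.0523). AURKA was the member that went up, from -0.38 to -0.09 (0.29 ± 0.089, adjusted p = 0.0205), lost without DMSO 4 h replicate 2, pacritinib 4 h replicate 2, DMSO 48 h replicate 1, pacritinib 48 h replicate 1 or pacritinib 48 h replicate 2 (adjusted p = 0.127, 0.0775, 0.161, 0.0571 and 0.065). Over the 8 libraries left out in turn, the count of 13 ranged from 5 to 11: 5 on leaving out pacritinib 48 h replicate 1, 6 on leaving out pacritinib 4 h replicate 2, 7 on leaving out DMSO 48 h replicate 1, 8 on leaving out DMSO 4 h replicate 2, 9 on leaving out DMSO 4 h replicate 1, 10 on leaving out pacritinib 48 h replicate 2 and 11 on leaving out pacritinib 4 h replicate 1 or DMSO 48 h replicate 2.

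With ruxolitinib 3 members had a lower fold change at 48 h than at 4 h, against 4.4% lower and 4.32% higher among all genes, and 0 had a higher one. PLK1 went from 0.09 to -0.21, a difference of -0.30 ± 0.064 (adjusted p = 0.00176) that held with each of the 8 libraries left out. KIF2C differed by -0.23 ± 0.064 (adjusted p = 0.0188), lost without DMSO 4 h replicate 1, ruxolitinib 4 h replicate 1, DMSO 48 h replicate 2 or ruxolitinib 48 h replicate 2 (adjusted p = 0.152, 0.0828, 0.11 and 0.1). BUB1B differed by -0.24 ± 0.073 (adjusted p = 0.0339), lost without DMSO 4 h replicate 1, ruxolitinib 4 h replicate 1, ruxolitinib 4 h replicate 2, DMSO 48 h replicate 1, DMSO 48 h replicate 2 or ruxolitinib 48 h replicate 2 (adjusted p = 0.173, 0.137, 0.0508, 0.12, 0.0723 and 0.271). The count of 3 became 1 on leaving out ruxolitinib 4 h replicate 1, DMSO 48 h replicate 2 or ruxolitinib 48 h replicate 2, 2 on leaving out DMSO 4 h replicate 1, ruxolitinib 4 h replicate 2 or DMSO 48 h replicate 1 and 3 on leaving out DMSO 4 h replicate 2 or ruxolitinib 48 h replicate 1. NUSAP1 and BUB1, higher at both times, differed by 0.20 ± 0.066 (adjusted p = 0.0511) and 0.11 ± 0.063 (0.305) and were not called.

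With fedratinib 7 members had a lower fold change at 48 h and 0 a higher one, against 2.12% lower and 2% higher among all genes: CENPE, ANLN, HMMR, KIF11, DLGAP5, NUSAP1 and BUB1. CENPE had the largest called difference, from 0.23 to -0.27 (-0.50 ± 0.11, adjusted p = 0.00732), lost without fedratinib 4 h replicate 2 or fedratinib 48 h replicate 1 (adjusted p = 0.112 and 0.0666). At 4 h the fedratinib libraries had 74.6 and 90.2 CPM of CENPE, and the second also stood above the first for TOP2A (368 and 433 CPM) and KIF11 (99.6 and 119 CPM). The count of 7 became 0 on leaving out fedratinib 4 h replicate 2 or fedratinib 48 h replicate 1, 2 on leaving out DMSO 48 h replicate 2, 3 on leaving out DMSO 4 h replicate 2, 4 on leaving out DMSO 4 h replicate 1 or DMSO 48 h replicate 1 and 7 on leaving out fedratinib 4 h replicate 1 or fedratinib 48 h replicate 2. With momelotinib edgeR called 0 differences, against 2.33% of all genes, with 4 at an unadjusted p under 0.05 and 0 by DESeq2. With itacitinib it called 0, against 0.0124% of all genes, with 1 at an unadjusted p under 0.05 and 0 by DESeq2.

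**Figure D4:**
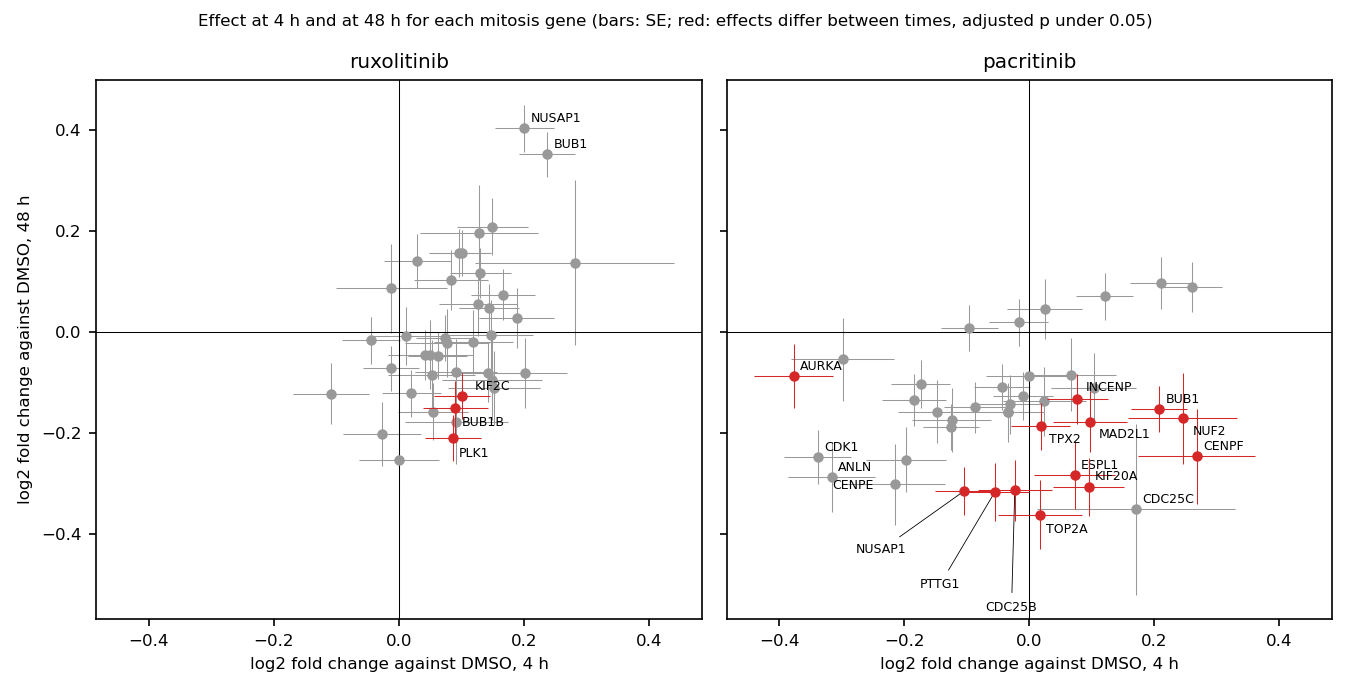
Log2 fold change against DMSO at 4 h (x axis) and at 48 h (y axis) for each of the 40 mitosis genes with ruxolitinib (left) and pacritinib (right); bars show the SE and red points are genes whose fold change differed between the times at an adjusted p under 0.05. With pacritinib BUB1 (0.21 and -0.15) crosses from above to below DMSO, and with ruxolitinib PLK1 (0.09 and -0.21) does.

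The inhibitors were also compared with each other at the same dose and time, each of the other 4 against ruxolitinib, 8 comparisons in all. Ruxolitinib and itacitinib share a pyrrolopyrimidine joined to a pyrazole, while fedratinib, momelotinib and pacritinib carry an anilinopyrimidine, which pacritinib closes into a macrocycle. At 4 h momelotinib had 12 members lower than ruxolitinib and 0 higher, against 0.355% lower and 0.367% higher among all genes. The median difference was -0.19, 37 of 40 were negative, and 33 did not overlap, against 34.9% of all genes. PLK1 was 221 and 219 CPM with ruxolitinib and 183 and 169 with momelotinib, a difference of -0.32 ± 0.045 (adjusted p = 4.62e-05) by edgeR's quasi-likelihood test, held without each library. The next were CDCA8 (-0.27 ± 0.046, adjusted p = 0.000908, lost without ruxolitinib replicate 1 or momelotinib replicate 2 at an adjusted p of 0.078 and 0.0581), KIF2C (-0.25 ± 0.045, adjusted p = 0.00188, lost without ruxolitinib replicate 1 at an adjusted p of 0.078) and BUB1B (-0.29 ± 0.052, adjusted p = 0.00246, lost without ruxolitinib replicate 1 at an adjusted p of 0.102). The count of 12 became 1 on leaving out ruxolitinib replicate 1, 4 on leaving out ruxolitinib replicate 2, 6 on leaving out momelotinib replicate 1 and 9 on leaving out momelotinib replicate 2.

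Pacritinib at 4 h had 16 members lower and 3 higher than ruxolitinib, against 14.5% lower and 11.1% higher among all genes. ECT2 (-0.39 ± 0.083, adjusted p = 0.000617), ANLN (-0.37 ± 0.070, adjusted p = 0.00016), CDK1 (-0.37 ± 0.054, adjusted p = 4.36e-06) and NUSAP1 (-0.30 ± 0.047, adjusted p = 9.86e-06) were among the lower genes, and BIRC5 (0.22 ± 0.049, adjusted p = 0.00112) was higher, and all 5 held without each library. NUSAP1 thus differed between the inhibitors, at 146 and 143 CPM with pacritinib and 175 and 181 with ruxolitinib. Itacitinib at 4 h had 6 members lower than ruxolitinib, against 2.29% lower and 3.61% higher among all genes, and 0 higher. BUB1 was 264 and 253 CPM with itacitinib and 303 and 299.97 with ruxolitinib, a difference of -0.22 ± 0.045 (adjusted p = 0.00141), lost without itacitinib replicate 2 (adjusted p = 0.0588). TTK differed by -0.30 ± 0.069 (adjusted p = 0.00484), lost without ruxolitinib replicate 2 or itacitinib replicate 1 (adjusted p = 0.0831 and 0.0867). The count of 6 became 1 on leaving out itacitinib replicate 2, 2 on leaving out ruxolitinib replicate 2 and 3 on leaving out ruxolitinib replicate 1 or itacitinib replicate 1. Fedratinib at 4 h had 1 member lower and 0 higher, against 1.4% lower and 2.12% higher among all genes. It was PLK1, at 200.2 and 195 CPM and a difference of -0.16 ± 0.045 (adjusted p = 0.0462), a call lost without any 1 of the 4 libraries. For BUB1 the fedratinib minus ruxolitinib difference at 4 h had an interval of -0.22 to -0.04.

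At 48 h 6 members were called lower with each of the other 4 inhibitors than with ruxolitinib: NUSAP1, BUB1, KIF20A, CDK1, CCNA2 and CCNB2. For the first 3 of these, every such call held without each library. All 4 comparisons used the same 2 ruxolitinib libraries, and each called 10.1% to 12.8% of all genes lower. The share of all genes lower in all 4 was not counted, so the 6 members have no background to be set against. NUSAP1 was 206 and 207 CPM with ruxolitinib, 144 and 148 with momelotinib and 145 and 153 with itacitinib, with fedratinib and pacritinib lower still. No library of the other inhibitors reached ruxolitinib, and the differences were -0.59 ± 0.047 (adjusted p = 1.27e-11) for fedratinib, -0.50 ± 0.047 (adjusted p = 4.99e-10) for momelotinib, -0.72 ± 0.048 (adjusted p = 1.54e-13) for pacritinib and -0.47 ± 0.047 (adjusted p = 1.61e-09) for itacitinib (edgeR's quasi-likelihood test). BUB1 differed by -0.48 ± 0.045 (adjusted p = 3.61e-10) for fedratinib, -0.43 ± 0.045 (adjusted p = 4.6e-09) for momelotinib, -0.51 ± 0.045 (adjusted p = 1.47e-10) for pacritinib and -0.41 ± 0.044 (adjusted p = 9.08e-09) for itacitinib. KIF20A differed by -0.37 ± 0.057, -0.36 ± 0.057, -0.52 ± 0.058 and -0.26 ± 0.056 in the same order, with adjusted p up to 0.000823. These 12 differences share the 2 ruxolitinib libraries.

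In all, the number of members lower than with ruxolitinib at 48 h was 11 for fedratinib, against 10.1% lower and 10.5% higher among all genes, and 10 for momelotinib, against 10.3% lower and 10.7% higher. It was 17 for pacritinib, with 1 higher, against 12.8% lower and 11.8% higher. It was 10 for itacitinib, with 1 higher, against 11.7% lower and 10.2% higher. These counts include the 6 genes above. The higher member was BIRC5 for pacritinib (0.13 ± 0.049, adjusted p = 0.0435), lost without ruxolitinib replicate 2, pacritinib replicate 1 or pacritinib replicate 2 (adjusted p = 0.573, 0.216 and 0.119), and PLK1 for itacitinib (0.13 ± 0.045, adjusted p = 0.0421), lost without ruxolitinib replicate 1, ruxolitinib replicate 2 or itacitinib replicate 1 (adjusted p = 0.133, 0.174 and 0.288). CDK1 was lower than with ruxolitinib for momelotinib (-0.34 ± 0.054, adjusted p = 9.97e-06) and pacritinib (-0.39 ± 0.054, adjusted p = 1.31e-06), both held without each library. For fedratinib CDK1 differed by -0.19 ± 0.054 (adjusted p = 0.00941), lost without ruxolitinib replicate 2 or fedratinib replicate 1 (adjusted p = 0.151 and 0.231), and for itacitinib by -0.16 ± 0.053 (adjusted p = 0.0275), lost without ruxolitinib replicate 2, itacitinib replicate 1 or itacitinib replicate 2 (adjusted p = 0.29, 0.066 and 0.19). The CCNA2 calls were lost without at least 1 library for momelotinib and itacitinib, and the CCNB2 call for fedratinib. With itacitinib, which shares its core structure with ruxolitinib, INCENP differed by -0.26 ± 0.048 (adjusted p = 0.000155), also held without each library. The fedratinib count became 6 on leaving out ruxolitinib replicate 1 or fedratinib replicate 1, 7 on leaving out ruxolitinib replicate 2 and 9 on leaving out fedratinib replicate 2. The momelotinib count became 5 on leaving out ruxolitinib replicate 1, 6 on leaving out momelotinib replicate 1, 8 on leaving out ruxolitinib replicate 2 and 10 on leaving out momelotinib replicate 2. The pacritinib count, 18 in both directions, became 11 on leaving out pacritinib replicate 1 and 13 on leaving out ruxolitinib replicate 1, ruxolitinib replicate 2 or pacritinib replicate 2. The itacitinib count, 11 in both directions, became 6 on leaving out itacitinib replicate 1 and 8 on leaving out ruxolitinib replicate 1, ruxolitinib replicate 2 or itacitinib replicate 2.

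Other genes of cell division, from lists that hold none of the 40 members, were counted in the same way. Among all genes tested, the shares called against DMSO, higher and then lower, were 3.42 and 5.04% for ruxolitinib, 2.21 and 3.79% for momelotinib and 13.1 and 17.4% for pacritinib at 4 h. At 48 h these shares were 12.5 and 13.2% for ruxolitinib, 3.66 and 4.04% for fedratinib, 0.995 and 0.946% for momelotinib and 8.26 and 10.1% for pacritinib, and the counts of each list stand beside them. Of 25 other spindle and cytokinesis genes, ruxolitinib at 4 h had 6 higher and 0 lower, with the motor KIF18A at 0.35 ± 0.089 (adjusted p = 0.0101), and momelotinib at 4 h had 0 higher and 4 lower. Pacritinib at 48 h had 0 higher and 7 lower of these 25, and fedratinib at 48 h 0 higher and 3 lower: KIF14 (-0.29 ± 0.070, adjusted p = 0.00831), DEPDC1 and GTSE1. In the other lists of this paragraph, edgeR's quasi-likelihood test called genes both ways with fedratinib at 48 h. ANAPC11 (0.30 ± 0.078, adjusted p = 0.0139) and CENPM (0.22 ± 0.067, adjusted p = 0.0385) were higher. RB1 (-0.18 ± 0.051, adjusted p = 0.0255) and MASTL (-0.21 ± 0.061, adjusted p = 0.0263) were lower. The 26 other kinetochore genes had 6 lower and 0 higher with pacritinib at 48 h, with PMF1 at -0.43 ± 0.083 (adjusted p = 0.000395) and CENPC at -0.34 ± 0.086 (adjusted p = 0.00474). The 19 condensin and cohesin genes had 7 lower and 0 higher there, with SMC4, a core condensin subunit, at -0.36 ± 0.066 (adjusted p = 0.000153). SMC4 was also the 1 condensin or cohesin gene lower with momelotinib at 48 h (-0.27 ± 0.065, adjusted p = 0.0239). Of 17 genes of the anaphase-promoting complex and its inhibitors, 5 were higher and 2 lower with ruxolitinib at 48 h, and 1 higher and 0 lower with pacritinib at 48 h. Of 13 genes of mitotic entry control, ruxolitinib at 4 h had 2 higher and 1 lower, with the centrosomal kinase NEK2 at 0.41 ± 0.10 (adjusted p = 0.00835). NEK2 was also higher with fedratinib at 4 h, at 0.39 ± 0.10 (adjusted p = 0.039 by edgeR's quasi-likelihood test). The 18 genes of G2/M transcription control (MuvB, B-MYB and E2F) had 2 higher and 6 lower with pacritinib at 4 h.

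Genes of G1/S and DNA replication (23 tested) had 2 higher and 8 lower with pacritinib at 4 h, against 13.1% and 17.4% of all genes, with cyclin E2 (CCNE2) at -1.10 ± 0.12 (adjusted p = 8.51e-09). With pacritinib at 48 h 1 was higher and 4 lower, against 8.26% and 10.1%, with cyclin E1 (CCNE1) at 0.33 ± 0.087 (adjusted p = 0.00706). The CDK inhibitor gene CDKN1B (p27) was higher with ruxolitinib, momelotinib and pacritinib at 4 h, at 0.35 ± 0.068 (adjusted p = 0.000696), 0.28 ± 0.068 (adjusted p = 0.00925) and 0.43 ± 0.068 (adjusted p = 9.18e-06), while CDKN1A (p21) was lower with pacritinib at 4 h (-1.11 ± 0.18, adjusted p = 1.33e-05). The 7 JAK-STAT target genes were counted beside the mitosis genes. At 4 h 7 were lower with ruxolitinib (SOCS3 at -2.61 ± 0.15, adjusted p = 1.09e-14), 7 with pacritinib, 6 with momelotinib, 3 with fedratinib and 0 with itacitinib, where 2 had an unadjusted p under 0.05. The shares of all genes lower at 4 h were 5.04%, 17.4% and 3.79% for the first 3, and 1.59% and 0.778% of all genes were called in either direction for the last 2. At 48 h 7 were lower with ruxolitinib, whereas with pacritinib 4 were higher and 0 lower and with fedratinib 2 were higher and 0 lower. At 48 h edgeR called 0 of the 7 with momelotinib and 0 with itacitinib, where 1 and 2 had an unadjusted p under 0.05 and the medians were 0.01 and -0.12. The shares of all genes at 48 h were 13.2% lower with ruxolitinib, 8.26% higher with pacritinib and 3.66% higher with fedratinib. The fetal globin gene HBG2, an erythroid marker, was higher with ruxolitinib at 48 h, at 0.72 ± 0.060 (adjusted p = 2.69e-11), beside higher BUB1 and NUSAP1. HBG2 was also higher with fedratinib at 48 h, at 0.26 ± 0.060 (adjusted p = 0.0058 by edgeR's quasi-likelihood test). With fedratinib at 48 h NUSAP1 was called lower and BUB1 was not called. The part of erythroid genes in the results for mitosis genes was not tested.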

How the data were processed

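RNA-seq was measured in 24 libraries of HEL cells. Read counts of genes, as whole numbers, were deposited by the authors in 1 table. The submitters' processing notes name bcl2fastq, STAR 2.5.1a, edgeR and GRCh38. How reads were counted, with which annotation and whether by strand was not given in the sources used here, so reads of a gene and of an antisense partner cannot be told apart. Of 34343 entries, 130 repeated an identifier, which left 34213 genes. After filterByExpr (16076 genes) and TMM scaling, edgeR 4.0.16 (with limma 3.58.1, R 4.3.3) fitted its quasi-likelihood model to all 24 libraries with a mean for each group. Residual degrees of freedom were 12, and the common biological coefficient of variation was 0.0468. Each of 24 comparisons was adjusted by Benjamini-Hochberg over the 16076 genes, with a threshold of 0.05. The SE of a fold change was taken from the F statistic, and CPM used the scaled library sizes. The 2 libraries of each group differed by more than sampling noise (chi-square per degree of freedom 3.484 to 15.019), so none was counted as a repeat of another.

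The mitosis genes, the other gene lists and the tests were chosen with earlier results of these data known. Values in each library were given for 13 members of all roles and for up to 6 called members per comparison and direction, and up to 3 called genes of other lists could be named per comparison and direction. Those printed were picked from these after their values were seen. Alternatives were DESeq2 1.42.0, RLE scaling, no filter, a stricter filter (1 CPM in 6 libraries), libraries of 1 time point, the replicate number as a block and leaving out each library, where a group's remaining library borrows the spread of the other groups. Protein-coding genes only was an alternative chosen after seeing the data. The test was also run on counts simulated for the comparison of momelotinib with DMSO at 4 h, and the outcome is not given here. Promoters came from RefSeq (GRCh38.p14), and exons were checked against GENCODE 29. Where a promoter window overlapped an exon, only 30 bases were printed.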

Additional observations from a re-analysis of the deposited data

Results flagged for a closer look

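The effects below differed between 48 h and 4 h by edgeR's quasi-likelihood test of the difference itself (adjusted p under 0.05), and each value is the log2 fold change against DMSO at 48 h minus that at 4 h. With ruxolitinib these were PLK1 (-0.30), BUB1B (-0.24) and KIF2C (-0.23), all higher than DMSO in mean at 4 h and lower at 48 h. With fedratinib they were CENPE (-0.50), ANLN (-0.37), HMMR (-0.36), KIF11 (-0.33), DLGAP5 (-0.28), NUSAP1 (-0.28) and BUB1 (-0.24). With pacritinib the mitotic entry genes were AURKA (0.29) and CDC25B (-0.29), and the checkpoint and anaphase genes were BUB1 (-0.36), ESPL1 (-0.36), MAD2L1 (-0.27) and PTTG1 (-0.26). The kinetochore genes were CENPF (-0.51) and NUF2 (-0.42), with INCENP (-0.21) from the passenger complex. The spindle genes were KIF20A (-0.40), TPX2 (-0.21) and NUSAP1 (-0.21), and TOP2A differed by -0.38. Of these 23, PLK1 with ruxolitinib and BUB1, KIF20A and TOP2A with pacritinib kept an adjusted p under 0.05 with each of the 8 libraries left out in turn.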

How the results depend on the processing

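No call of a mitosis gene changed direction under any alternative. Of 178 calls, DESeq2 kept 173, RLE scaling 175, no filter 153, the stricter filter 178 and protein-coding genes only 177. Libraries of 1 time point kept 132 of 155, and leaving out 1 library kept 470 of 804. Replicate numbers did not pair the libraries (correlation of deviations -0.038 to 0.048, median 0.002, over 66 pairs of groups). The fit with the replicate block kept all 178 calls and gave 7 members for momelotinib at 48 h in place of 3, and every other count was within 1.5 times.

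Momelotinib at 48 h also had 6 members with the stricter filter, 7 with 1 time point, 9 with DESeq2 and 5 with protein-coding genes only. Ruxolitinib at 4 h had 2 with 1 time point (4 in the full fit), and fedratinib at 4 h 2 without a filter (0). DESeq2 gave 1 for DMSO at 48 h against 4 h (0) and 5 for ruxolitinib between times (3). Fedratinib against ruxolitinib at 4 h (1) had 0 without a filter, 0 with 1 time point and 2 with DESeq2, and momelotinib against ruxolitinib at 4 h (12) had 5 with 1 time point. Shares of all genes called in these alternative fits are not given here. Whether a changed count is particular to mitosis genes can thus not be read from it, and the cause of these changes was not tested.

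With 1 library left out, the counts against DMSO at 4 h were 1 to 2 for ruxolitinib, 2 to 7 for momelotinib and 8 to 12 for pacritinib. At 48 h they were 4 to 8 for ruxolitinib, 0 to 8 for fedratinib, 0 to 1 for momelotinib, 11 to 14 for pacritinib and 0 to 0 for itacitinib. Between times they were 1 to 3 for ruxolitinib, 0 to 7 for fedratinib and 5 to 11 for pacritinib. Against ruxolitinib at 4 h they were 0 to 0 for fedratinib, 1 to 9 for momelotinib, 13 to 16 for pacritinib and 1 to 3 for itacitinib, and at 48 h 6 to 9, 5 to 10, 11 to 13 and 6 to 8. With 2 libraries a group and fold changes mostly under 0.40, calls near the threshold rest on single libraries. CDC25C had too few counts for a narrow interval.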
